A study of Homo sapiens with 9 samples.

Results

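The 10 genes described here encode enzymes of fatty acid synthesis, desaturation and activation, the gate to mitochondrial fatty acid oxidation, and the main coat protein of lipid droplets. They were chosen by name (ACLY, ACACA, FASN, SCD, FADS1, FADS2, ACSL3, ACSL4, CPT1A and PLIN2). All 10 were found on each of the 9 deposited gene lists, the longest of which holds 27615 genes. The study read the RNA of MDA-MB-231, a triple-negative breast cancer cell line, under 3 treatments, namely DMSO as vehicle, rimonabant, or TXX-1-10. Rimonabant blocks the cannabinoid receptor CB1, and TXX-1-10 was derived from rimonabant. Each treatment has 3 RNA-seq libraries, so 9 libraries were analysed. Neither dose nor time of exposure of these cells is given in the sources used here, so it is not known whether the compounds were compared at matched doses. The libraries come from a single cell line, and nothing in the labels says that replicates are separate cultures, so p-values measure only the spread between these libraries.

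Cells build fatty acids in the cytosol. ACLY splits citrate into acetyl-CoA, ACACA carboxylates acetyl-CoA to malonyl-CoA, and FASN joins these units into palmitate. SCD then makes monounsaturated fatty acids from saturated ones, while FADS2 and FADS1 act in turn on dietary polyunsaturated precursors. ACSL enzymes couple free fatty acids to CoA, which is needed before they can enter lipids or be oxidised. CPT1A moves the activated chains to carnitine for import into mitochondria and is inhibited by malonyl-CoA, and PLIN2 coats and stabilises stored lipid droplets. Many of the synthesis genes are known targets of the sterol-sensing transcription factors SREBP-1 and SREBP-2, and PLIN2 is a known target of the lipid-sensing PPAR receptors.

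In TXX-1-10-treated cells, PLIN2 more than doubled and SCD rose, whereas ACACA, ACLY, FADS2, ACSL4 and ACSL3 fell. In rimonabant-treated cells PLIN2 moved the other way and fell, together with ACACA, FASN, CPT1A, ACSL4, ACLY and ACSL3, while FADS1 and SCD rose. Among the 10, the compounds differed most in PLIN2, which was 3.07-fold higher with TXX-1-10 than with rimonabant. "Rose" and "fell" are used here for genes with an adjusted p under 0.05 in edgeR's quasi-likelihood test on the deposited counts. A gene is called changed only if its absolute log2 fold change was also at least 1.

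The promoter letters of 3 members are shown, namely PLIN2, SCD and ACLY. PLIN2 and SCD were the members that rose with TXX-1-10. ACLY fell in all 3 comparisons made, as did ACSL4, whose promoter is not shown. Each run is the 250 bases before the transcription start, 5′ to 3′ on the strand of the gene, from RefSeq (GRCh38.p14). The start is that of the RefSeq table, and for these 3 genes it lies inside the wider GENCODE 29 locus whose bounds are given for each gene. Capitals mark the E-box CACGTG in PLIN2 and the CCAAT box, on either strand, in SCD and ACLY.
PLIN2 (chr9:19127493-19127742, minus strand): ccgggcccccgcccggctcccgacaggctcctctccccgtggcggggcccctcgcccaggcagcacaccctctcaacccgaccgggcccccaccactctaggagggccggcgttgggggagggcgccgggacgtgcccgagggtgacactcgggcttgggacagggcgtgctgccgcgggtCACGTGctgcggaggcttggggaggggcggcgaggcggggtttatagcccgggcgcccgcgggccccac
SCD (chr10:100346983-100347232, plus strand): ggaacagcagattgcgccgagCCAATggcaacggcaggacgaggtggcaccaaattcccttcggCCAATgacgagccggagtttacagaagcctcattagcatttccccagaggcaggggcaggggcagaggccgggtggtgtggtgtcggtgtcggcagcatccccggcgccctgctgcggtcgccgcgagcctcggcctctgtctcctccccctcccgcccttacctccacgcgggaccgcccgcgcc
ACLY (chr17:41919023-41919272, minus strand): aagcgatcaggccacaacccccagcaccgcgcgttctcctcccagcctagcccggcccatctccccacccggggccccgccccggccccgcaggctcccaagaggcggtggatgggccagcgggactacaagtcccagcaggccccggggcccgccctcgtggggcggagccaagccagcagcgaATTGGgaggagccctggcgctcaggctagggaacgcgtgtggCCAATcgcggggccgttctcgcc

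The E-box of PLIN2 starts 69 bases before the transcription start. No other of the 9 members matched in the promoter table holds CACGTG, which 6.345% of the 35116 promoters of this table hold. The CCAAT letters lie 229 and 186 bases before the start of SCD, 65 and 23 bases before that of ACLY, and 75 bases before that of ACSL3. CCAAT was found in 32.01% of all promoters. The GC box GGGCGG, read on both strands, occurred in 7 of the 9 members and in 42.64% of all promoters. The sterol regulatory element TCACNCCAC, read on both strands, was in none of the 9 and in 0.8828% of all promoters. These are matches of letters in a short window and say nothing about binding. FASN was not among the matched promoters.

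PLIN2, the droplet coat protein (chromosome 9, 19108375 to 19149290, minus strand, GRCh38), gave the largest change of the 10 with TXX-1-10. Its level in FPKM (the read count scaled to exon length and to the library total) was 34.5, 33.6 and 33.1 in the 3 vehicle libraries. It was 27.3, 23.97 and 24.7 with rimonabant, and 75.1, 72.6 and 85.7 with TXX-1-10. All 3 rimonabant libraries lay below all vehicle libraries, and all 3 TXX-1-10 libraries lay far above both groups. These values rest on 2294 to 8020 reads per library. With TXX-1-10, PLIN2 was 2.31-fold the vehicle level (log2 fold change 1.21, SE 0.071, adjusted p = 1.42e-07), the 343rd largest absolute change of 4236 genes tested. With rimonabant it fell by 0.41 on the log2 scale (SE 0.072, adjusted p = 0.00106). Set directly against rimonabant, TXX-1-10 gave a log2 fold change of 1.62 (95% interval 1.46 to 1.78, adjusted p = 4.28e-08), the 51st largest absolute change of that comparison. The highest of the TXX-1-10 values comes from replicate 3, and without that library the log2 fold change against vehicle was 1.13 (adjusted p = 2.81e-08). PLIN2 has the shortest exon sequence of the 10 (5086 bases), and levels in that library fell with gene length.

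**Figure D1:**
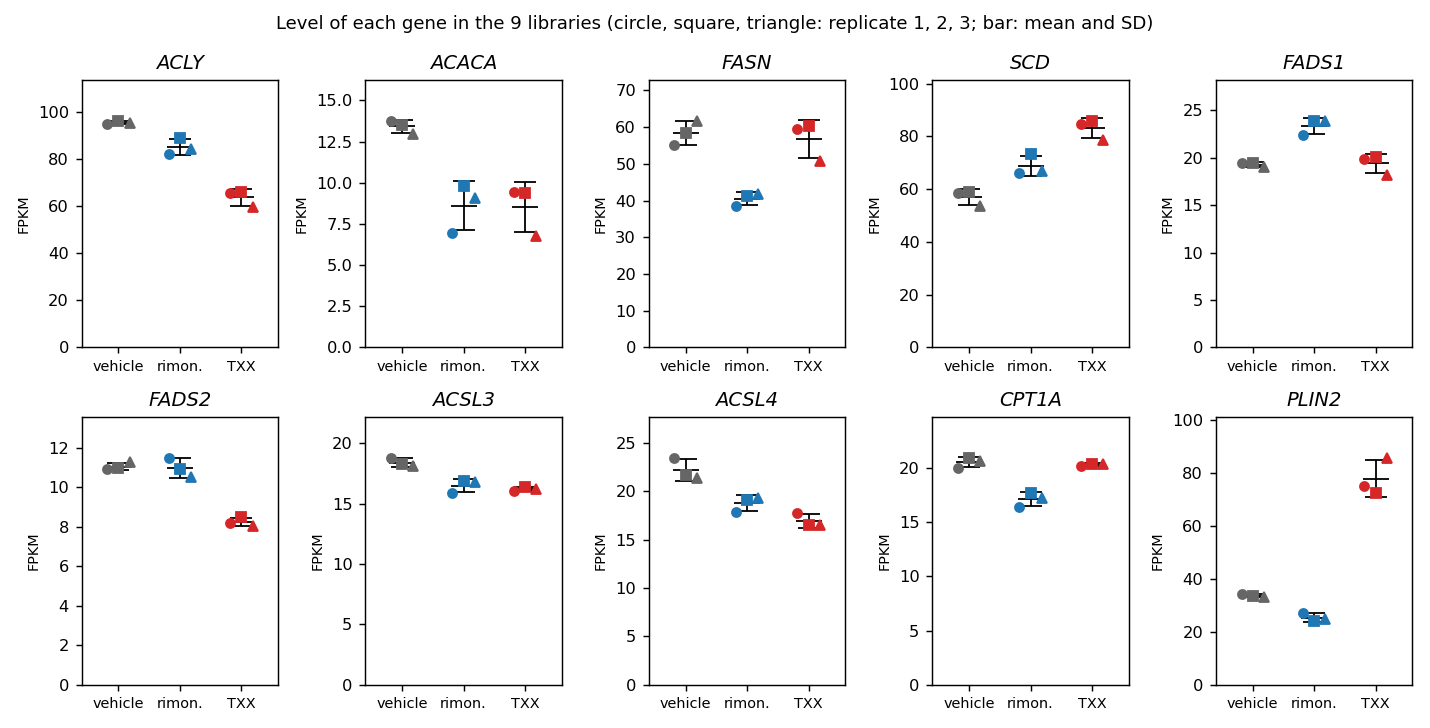
Level of each of the 10 genes in FPKM (y axis, from 0) in the vehicle, rimonabant and TXX-1-10 libraries, with circle, square and triangle for replicates 1, 2 and 3 and bars for the mean ± SD (n = 3). PLIN2 lies between 72.6 and 85.7 in the TXX-1-10 libraries and between 23.97 and 34.5 in the other 6, and SCD steps up from vehicle to rimonabant to TXX-1-10.

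PLIN2 was the single member called changed with TXX-1-10 against vehicle. The background was wide, since 11.8% of the 4236 genes tested were called in this comparison and 4.20% were called higher. Any fold counted, 7 of the 10 members passed the adjusted p, 2 higher and 5 lower. This is close to the 74.4% of all genes tested that passed, 30.5% as higher and 43.8% as lower. The libraries of the 2 groups did not overlap in 7 members, against 78.7% of all genes. The median log2 fold change of the 10 was -0.11, and that of all genes tested was -0.095.

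With rimonabant against vehicle, 9 of the 10 members passed, 2 higher and 7 lower, where 48.9% of all genes tested passed, 23.7% as higher and 25.2% as lower. The libraries did not overlap in the same number of members, 9, against 61.1% of all genes. The changes were small. By edgeR 0 members were called changed, where 1.13% of all genes were called. By DESeq2 and by limma on log2(FPKM + 1), 0 members were called as well. At an unadjusted p under 0.05, 9 members passed at any fold and 0 with the 2-fold threshold. The share of all genes at the unadjusted p was not computed, so these 2 counts have no background. The median log2 fold change of the 10 was -0.20, and that of all genes was -0.020.

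The order of members by level also shows the change in PLIN2. Among vehicle libraries ACLY was highest (95.6 ± 0.76 FPKM, mean ± SD, n = 3), followed by FASN (58.4 ± 3.3) and SCD (56.9 ± 3.0), whose libraries overlapped. PLIN2 was the fourth (33.7 ± 0.70), and the other members ranged from 22.1 ± 1.1 for ACSL4 to 11.03 ± 0.19 for FADS2 without overlap between neighbours. With TXX-1-10, SCD (83.2 ± 3.9) and PLIN2 (77.8 ± 7.0) stood highest and overlapped each other, above ACLY (63.8 ± 3.7). With rimonabant the order began with ACLY (85.2 ± 3.5), SCD (68.8 ± 3.9) and FASN (40.4 ± 1.8). FPKM here divides by all annotated exons of a gene, so levels of genes with long alternative exons, such as FADS1 and FADS2, are lowered relative to others.

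Libraries were of like size, with a total behind the FPKM values of 17078370 to 19277808 reads. In rimonabant replicate 1 and TXX-1-10 replicate 3, the level relative to the other replicates of the group fell with gene length (rank correlation of -0.697 and -0.696 across genes, which are not independent replicates). In the vehicle libraries this correlation lay between -0.0190 and 0.0281. Reads of the mitochondrial genome made up 3.34% to 3.70% of the listed counts with TXX-1-10 and 6.21% to 6.47% with vehicle. The part of these differences in the results below was not tested. Values without both libraries that stand apart are given where they bear on a member. The line markers VIM (224 to 329 FPKM), CD44, EGFR, KRT8 and KRT18 were present in all 9 libraries. ESR1 was at most 0.0314 FPKM and PGR at most 0.0459 where listed, and CDH1 had 0 counts on the 4 lists that reach it. ERBB2 was at 6.996 to 9.52 FPKM and EPCAM at 4.47 to 5.37. Of 4 adipocyte markers, FABP4 was at 0 to 0.461 FPKM and PLIN1 at no more than 0.0716 on 4 lists, and ADIPOQ and LEP were on no list. All 8 markers of fibroblasts, leukocytes and endothelium stayed at or below 0.798 FPKM. In bulk RNA, a change per cell and a change in the share of cells that carry a transcript cannot be told apart.

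ACLY, the source of cytosolic acetyl-CoA (chromosome 17, 41866908 to 41930542, minus strand, GRCh38), stood at 95.02, 96.4 and 95.2 FPKM in vehicle-treated cells. It was 82.3, 89.1 and 84.2 with rimonabant and 65.8, 66.1 and 59.5 with TXX-1-10. The 3 groups did not overlap, and the steps down ran from vehicle to rimonabant to TXX-1-10. ACLY fell by 0.58 on the log2 scale with TXX-1-10 (SE 0.055, adjusted p = 4.89e-06) and was lower with TXX-1-10 than with rimonabant (log2 fold change -0.42, SE 0.055, adjusted p = 9.2e-05). The smaller fall with rimonabant, 0.17 on the log2 scale (SE 0.055, adjusted p = 0.0301), did not pass with TMM scaling (-0.15, adjusted p = 0.058) nor without rimonabant replicate 1 (-0.14, adjusted p = 0.0726). It also missed the threshold without any 1 of the 3 vehicle libraries or without rimonabant replicate 3 (-0.17 to -0.16, adjusted p 0.0682 to 0.0939).

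ACACA, the carboxylase that commits acetyl-CoA to fatty acid synthesis (chromosome 17, 37084988 to 37406818, minus strand), fell with both compounds. Its FPKM values were 13.8, 13.5 and 12.9 with vehicle, 6.98, 9.79 and 9.09 with rimonabant, and 9.43, 9.40 and 6.79 with TXX-1-10. Every treated library lay below every vehicle library. The log2 fold change was -0.65 with TXX-1-10 (SE 0.141, adjusted p = 0.00183) and -0.64 with rimonabant (SE 0.141, adjusted p = 0.00423). Between the compounds it was -0.013, with a 95% interval from -0.33 to 0.30, so a difference of either sign within that interval is not excluded. The lowest value of each treated group comes from the library whose levels fell with gene length, and ACACA has the longest exon sequence of the 10 (13008 bases). Without these 2 libraries, the log2 fold change was -0.51 with each compound (adjusted p = 2.67e-10 with TXX-1-10 and 1.32e-09 with rimonabant).

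FASN, the synthase that builds palmitate (chromosome 17, 82078333 to 82098332, minus strand), separated the compounds. It was at 55.2, 58.4 and 61.8 FPKM with vehicle and at 38.4, 41.3 and 41.7 with rimonabant. With TXX-1-10 it was at 59.5, 60.2 and 50.8, within and just below the vehicle range. Rimonabant-treated cells thus held 0.692 of the vehicle level (log2 fold change -0.53, SE 0.075, adjusted p = 0.000313). The log2 fold change with TXX-1-10 was -0.041, with a 95% interval from -0.21 to 0.13 (adjusted p = 0.638). The direct comparison gave 0.49 (SE 0.075, adjusted p = 0.00024), higher with TXX-1-10 in all 3 libraries. The sign of the value against vehicle turned with TMM scaling (0.059) and without TXX-1-10 replicate 3 (0.034), both with adjusted p above 0.05.

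SCD, the desaturase that makes oleate and palmitoleate (chromosome 10, 100347124 to 100364834, plus strand), rose with both compounds. Its 3 vehicle values were 58.4, 58.9 and 53.5 FPKM. They were followed by 66.2, 73.4 and 67.0 with rimonabant and 84.9, 86.0 and 78.8 with TXX-1-10, and no 2 groups overlapped. SCD was 1.46-fold the vehicle level with TXX-1-10 (log2 fold change 0.55, SE 0.062, adjusted p = 1.91e-05) and 1.21-fold with rimonabant (0.27, SE 0.062, adjusted p = 0.00487). The difference between the compounds was 0.27 (SE 0.062, adjusted p = 0.00309).

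**Figure D2:**
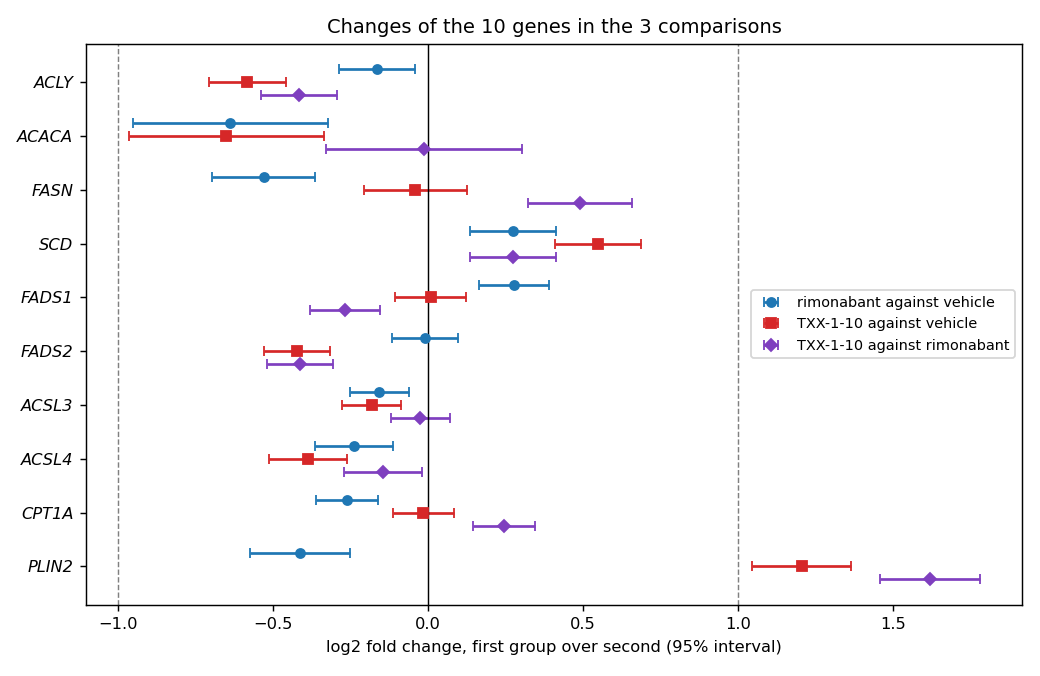
Log2 fold change of each gene (x axis, with 95% interval) for rimonabant against vehicle (blue circles), TXX-1-10 against vehicle (red squares) and TXX-1-10 against rimonabant (purple diamonds); dashed lines mark a log2 fold change of 1 in either direction. PLIN2 lies beyond 1 at 1.21 and 1.62 in the TXX-1-10 comparisons and at -0.41 with rimonabant, and the intervals of FASN, FADS1 and CPT1A with TXX-1-10 against vehicle span 0.

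FADS1 and FADS2, whose loci overlap on opposite strands of chromosome 11, responded to different compounds. FADS1 (61799625 to 61829318, minus strand) makes arachidonate and eicosapentaenoate in the later desaturation step. It was at 19.4, 19.4 and 19.0 FPKM with vehicle, 22.4, 23.8 and 23.9 with rimonabant, and 19.9, 20.1 and 18.2 with TXX-1-10. FADS1 rose with rimonabant (log2 fold change 0.28, SE 0.051, adjusted p = 0.00148) and lay 0.27 lower with TXX-1-10 than with rimonabant (adjusted p = 0.00102). Against vehicle its TXX-1-10 value was 0.0084, with a 95% interval from -0.11 to 0.12.

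FADS2 (61792980 to 61867354, plus strand) carries out the initial desaturation of linoleate and alpha-linolenate. Its vehicle values were 10.9, 10.97 and 11.2 FPKM, and its rimonabant values of 11.47, 10.9 and 10.5 lay around them. With TXX-1-10 the values were 8.19, 8.46 and 8.04, below all other libraries. FADS2 fell by 0.42 on the log2 scale with TXX-1-10 (SE 0.048, adjusted p = 1.8e-05), and by 0.41 against rimonabant (SE 0.048, adjusted p = 3.52e-05). The log2 fold change with rimonabant against vehicle was -0.010 (95% interval -0.12 to 0.096). Exons of FADS1 and FADS2 overlap over 490 bases on opposite strands (4.79% of the exon bases of FADS1 and 4.44% of those of FADS2), and the strand setting of the counting is not given in the sources used here, so reads in that stretch cannot be assigned to one of them.

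The activating enzymes ACSL3 and ACSL4 fell with both compounds, by less than 0.4 on the log2 scale. ACSL3, which sits on the endoplasmic reticulum and on nascent lipid droplets (chromosome 2, 222860934 to 222944639, plus strand), was at 18.8, 18.3 and 18.1 FPKM with vehicle. It was 15.9, 16.8 and 16.8 with rimonabant and 16.0, 16.4 and 16.2 with TXX-1-10, all below vehicle. The log2 fold change was -0.18 with TXX-1-10 (SE 0.043, adjusted p = 0.00314) and -0.16 with rimonabant (SE 0.043, adjusted p = 0.0126). The first did not pass with TMM scaling (-0.083, adjusted p = 0.13), and the second did not pass without rimonabant replicate 1 among the 9369 genes of the wider fit (-0.13, adjusted p = 0.0516).

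ACSL4 (chromosome X, 109624244 to 109733403, minus strand) prefers arachidonate and related polyunsaturated chains. It was at 23.4, 21.7 and 21.3 FPKM with vehicle, 17.8, 19.1 and 19.3 with rimonabant, and 17.8, 16.5 and 16.5 with TXX-1-10. No treated library reached the vehicle range. ACSL4 fell by 0.39 on the log2 scale with TXX-1-10 (SE 0.056, adjusted p = 0.000122) and by 0.24 with rimonabant (SE 0.056, adjusted p = 0.00573). The difference between the compounds, -0.15 (95% interval -0.27 to -0.021, adjusted p = 0.043), failed to pass in 12 of 21 alternative analyses, TMM scaling among them (-0.061, adjusted p = 0.401). Among the 12 were the omission of vehicle replicate 2 or 3 (adjusted p = 0.0624 and 0.0505), of rimonabant replicate 2 or 3 (0.106 and 0.136) and of TXX-1-10 replicate 2 or 3 (0.12 and 0.0917).

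CPT1A, the gate to mitochondrial oxidation (chromosome 11, 68754620 to 68844410, minus strand), fell with rimonabant. Its vehicle values were 20.0, 20.9 and 20.6 FPKM. With rimonabant they were 16.4, 17.7 and 17.2, and with TXX-1-10 20.1, 20.4 and 20.3, inside the vehicle range. CPT1A fell by 0.26 on the log2 scale with rimonabant (SE 0.045, adjusted p = 0.00098). The TXX-1-10 value against vehicle was -0.016 (95% interval -0.11 to 0.084), and CPT1A was 0.25 higher with TXX-1-10 than with rimonabant (SE 0.044, adjusted p = 0.00077).

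In the direct comparison of the compounds, 1 pair of treatments, 8 of the 10 members passed the adjusted p, where 64.5% of all genes tested did. PLIN2, FASN, SCD and CPT1A were higher with TXX-1-10, and ACLY, FADS2, FADS1 and ACSL4 were lower. Of all genes tested, 25.1% were higher and 39.4% lower. Libraries did not overlap in 8 members, against 63.6% of all genes. PLIN2 was the single member called changed, and 5.93% of all genes were called, 1.58% as higher. ACACA and ACSL3 did not pass. The interval for ACSL3 ran from -0.12 to 0.071 around a log2 fold change of -0.025.

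TXX-1-10 values depend on the scaling by a constant. The median log2 fold change of all genes tested was -0.095 against vehicle with the library totals of the authors and 0.0038 with TMM, and -0.077 and 0.0097 against rimonabant. With TMM, PLIN2 stood at 1.30 and SCD at 0.65 against vehicle, ACACA at -0.55, ACLY at -0.48, FADS2 at -0.32 and ACSL4 at -0.29, all with adjusted p under 0.05. No member that passed against vehicle turned its direction in any alternative run.

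The ratio of 2 genes within a library is free of this scaling. The ratio of SCD to FASN was 0.866 to 1.06 in vehicle libraries, 1.61 to 1.78 with rimonabant and 1.43 to 1.55 with TXX-1-10, and the 3 groups did not overlap. The ratio of ACSL3 to ACSL4 also separated the groups, at 0.802 to 0.847, 0.868 to 0.891 and 0.902 to 0.991. FADS1 to FADS2 was 1.69 to 1.79 with vehicle, below the 1.95 to 2.28 with rimonabant and the 2.27 to 2.43 with TXX-1-10, which overlapped. ACLY to ACACA was 6.90 to 7.35 with vehicle and 9.10 to 11.8 with rimonabant, and the TXX-1-10 range of 6.97 to 8.77 overlapped vehicle. The highest of these values in each treated group is again from rimonabant replicate 1 and TXX-1-10 replicate 3. PLIN2 to CPT1A was 1.61 to 1.72, 1.36 to 1.66 and 3.56 to 4.21. No test was run on the ratios, which show unequal change of the paired genes and not which of them moved.

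**Figure D3:**
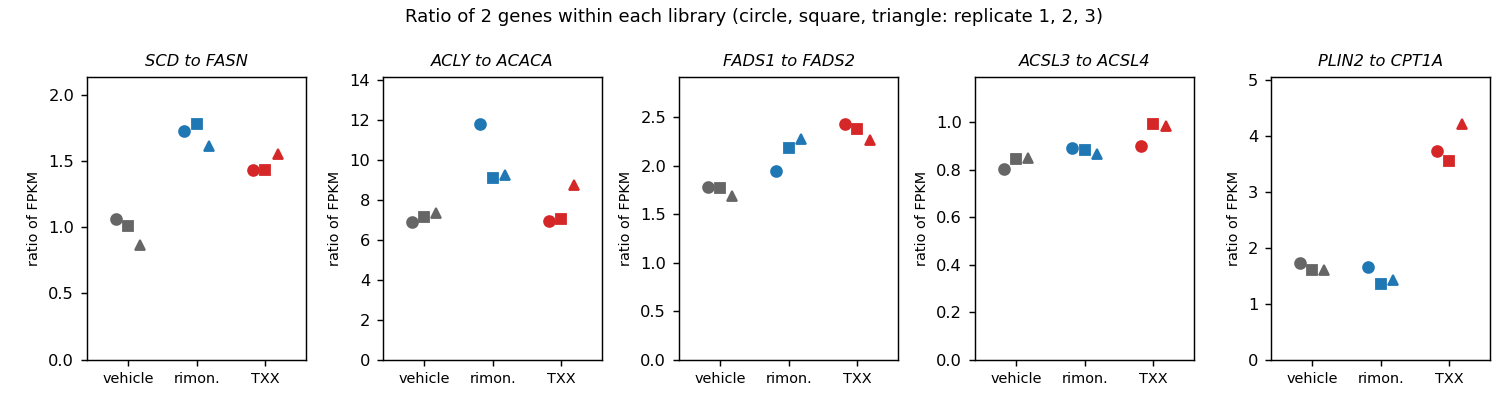
Ratio of the FPKM of 2 genes within each library (y axis, from 0) for 5 pairs, with circle, square and triangle for replicates 1, 2 and 3 of vehicle, rimonabant and TXX-1-10. SCD to FASN is at most 1.06 with vehicle and at least 1.43 in all treated libraries, and PLIN2 to CPT1A is at least 3.56 with TXX-1-10 and at most 1.72 elsewhere.

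Of all other genes tested, the 3 whose pattern over the 9 libraries lay closest to PLIN2 were ISG15, NAMPT and MAPK13. Likeness is the Euclidean distance over 9 libraries of log2(FPKM + 1) minus the vehicle mean. It was 0.46 for ISG15, an interferon-induced ubiquitin-like protein, which changed by 1.06 with TXX-1-10 and -0.21 with rimonabant on the log2 scale. It was 0.53 for NAMPT, an enzyme of NAD synthesis (1.07 and -0.15), and 0.73 for MAPK13, a p38 kinase (0.90 and -0.14).

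The pathway around the members was read from a list of 108 other genes in 7 roles. Rimonabant replicate 1 lists too few genes for this, so these tests used the other 8 libraries, 2 of them from rimonabant. In that fit 79 of the 108 genes were on all 8 lists with a mean of at least 1 FPKM. The genes left out are those with few reads, and a gene missing from a list is not at 0. With TXX-1-10, 27 rose, 37 fell and 15 did not pass. The 64 that passed are to be read against 75.3% of the 9369 genes tested, of which 34.7% rose and 40.6% fell. Of the 79, 8 were called changed, against 12.7% of all genes. With rimonabant 20 rose, 25 fell and 34 did not pass. Of all genes, 46.5% passed, 23.7% as higher and 22.8% as lower. Of the 79, 1 was called, against 1.49%. With TMM scaling the TXX-1-10 split was 30 and 32. Between the compounds 24 were higher with TXX-1-10, 25 were lower and 30 did not pass, where 60.6% of all genes passed, 26.7% as higher and 33.9% as lower. This balance depended on the analysis, with 29 higher and 22 lower under TMM scaling, 31 and 24 with block and length correction, and 25 and 31 without the 2 libraries that stand apart. Of these, 2 were called, against 6.41% of all genes. The median log2 fold change of the 79 was -0.040 with TXX-1-10 (all genes -0.042) and -0.058 with rimonabant (all genes 0.0030).

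Supply and control genes were mixed. Of 16, 8 rose and 5 fell with TXX-1-10 (34.7% and 40.6% of all genes tested), and 7 rose and 3 fell with rimonabant (23.7% and 22.8% of all genes tested). INSIG1, which holds SREBP proteins in the endoplasmic reticulum and is itself an SREBP target, rose the most in both. Its FPKM values were 11.4, 12.3 and 13.7 with vehicle, 26.5 and 24.7 with rimonabant, and 30.1, 30.5 and 32.4 with TXX-1-10. The log2 fold change was 1.32 with TXX-1-10 (SE 0.070, adjusted p = 5.5e-09) and 1.04 with rimonabant (SE 0.077, adjusted p = 1.64e-06). INSIG1 was the pathway gene called with rimonabant, but its log2 fold change was under the threshold of 1 without vehicle replicate 1 (0.982) or without rimonabant replicate 2 (0.992).

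MID1IP1, which promotes the polymerisation of acetyl-CoA carboxylase, told the compounds apart. It was at 12.5, 13.1 and 13.3 FPKM with vehicle, 10.5 and 12.6 with rimonabant, and 23.1, 23.2 and 26.0 with TXX-1-10. It rose by 0.90 on the log2 scale with TXX-1-10 (SE 0.074, adjusted p = 2.86e-07), was at -0.17 with rimonabant (adjusted p = 0.132), and was called changed between the compounds (1.06, SE 0.085). This difference was under the threshold of 1 without rimonabant replicate 2 (0.939) and in the fit of 9 libraries, with rimonabant replicate 1 included (0.988). Its rimonabant value hung on single libraries, with -0.043 (adjusted p = 0.765) without rimonabant replicate 2, -0.092 (adjusted p = 0.417) in the fit of 9, and a pass without rimonabant replicate 3 (-0.30, adjusted p = 0.0389) or TXX-1-10 replicate 3 (-0.17, adjusted p = 0.0295). PRKAA1, a catalytic subunit of the kinase AMPK, fell by 0.73 with TXX-1-10 (adjusted p = 2.67e-07) and by 0.35 with rimonabant (adjusted p = 0.00127). The other 3 AMPK subunits tested, named after their values were seen, rose with TXX-1-10. PRKAB1 rose by 0.67 (adjusted p = 9.69e-07), PRKAG1 by 0.37 (adjusted p = 0.00026) and PRKAA2 by 0.22 (adjusted p = 0.0176). With rimonabant PRKAG1 rose by 0.40 (adjusted p = 0.00101) and PRKAB1 by 0.30 (adjusted p = 0.00476), and PRKAA2 was at 0.20 (adjusted p = 0.0703).

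Among 6 isoforms and mitochondrial synthesis enzymes, 4 fell with TXX-1-10 and 2 did not pass, where 40.6% of all genes fell. MECR, the reductase of mitochondrial fatty acid synthesis, fell by 0.71 (adjusted p = 5.98e-06), and CBR4, a subunit of the ketoacyl reductase, by 0.56 (adjusted p = 8.42e-05). With rimonabant they fell by 0.32 (adjusted p = 0.0109) and 0.54 (adjusted p = 0.000872). SCD5, the second stearoyl-CoA desaturase, fell by 0.38 with TXX-1-10 (adjusted p = 0.000301) and rose by 0.26 with rimonabant (adjusted p = 0.0132). Its TXX-1-10 direction was opposite to that of SCD. Without rimonabant replicate 2, the rimonabant values of SCD5 and MECR did not pass (adjusted p = 0.103 and 0.0635), nor did that of MECR without replicate 3 (0.0612).

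Elongation genes moved mostly one way with TXX-1-10. Of 9, 8 fell and ELOVL7 rose, where 40.6% of all genes tested fell and 34.7% rose. HACD1 and HACD2, dehydratases of the elongation cycle, fell by 0.58 (adjusted p = 1.67e-06) and 0.54 (adjusted p = 5.39e-06). ELOVL7, an elongase of saturated chains, went from 2.36 ± 0.15 to 5.02 ± 0.26 FPKM (SD, n = 3), a log2 fold change of 1.09 (SE 0.085, adjusted p = 1.73e-07). With rimonabant 3 of the 9 rose, 2 fell and 4 did not pass, where 23.7% of all genes rose and 22.8% fell. ELOVL7 rose by 0.41 on the log2 scale (adjusted p = 0.00462), HACD1 fell by 0.49 (adjusted p = 0.000112), and HACD2 was at 0.021 (adjusted p = 0.815).

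Of the 4 genes listed under desaturase electron supply, 3 fell and 1 rose with TXX-1-10, where 40.6% of all genes fell and 34.7% rose. CYB5A, microsomal cytochrome b5, was at 4.04, 3.96 and 3.97 FPKM with vehicle, 2.64 and 3.12 with rimonabant, and 1.65, 1.40 and 1.78 with TXX-1-10. The 3 groups did not overlap. It fell by 1.31 on the log2 scale with TXX-1-10 (SE 0.095, adjusted p = 8.77e-08) and by 0.47 with rimonabant (SE 0.101, adjusted p = 0.00256). CYB5B, the outer mitochondrial form, fell by 0.56 with TXX-1-10 (adjusted p = 4.27e-06) and was at 0.038 with rimonabant (adjusted p = 0.667). CYB5R3, the reductase of cytochrome b5, fell by 0.48 (adjusted p = 3e-06) and by 0.15 (adjusted p = 0.0433). The rimonabant value of CYB5R3 missed the threshold without vehicle replicate 2 or 3, either rimonabant library or TXX-1-10 replicate 1 (adjusted p 0.0647 to 0.257) and with rimonabant replicate 1 included (-0.095, adjusted p = 0.207), and that of CYB5A without rimonabant replicate 2 (-0.35, adjusted p = 0.0502).

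In activation, uptake and binding, 4 of 10 genes rose and 4 fell with TXX-1-10, and 5 fell and 5 did not pass with rimonabant. Of all genes, 34.7% rose and 40.6% fell with TXX-1-10, and 22.8% fell with rimonabant. Synthetases of this list were named after their values were seen. With TXX-1-10 ACSL5 rose by 0.34 (adjusted p = 2.83e-05), ACSF3 rose by 0.25 (adjusted p = 0.0334) and ACSL1 fell by 0.16 (adjusted p = 0.0209). ACSF2 was at 0.026 (adjusted p = 0.697). With rimonabant ACSF2 fell by 0.42 (adjusted p = 0.000431) and ACSL1 by 0.28 (adjusted p = 0.00326). There ACSL5 was at -0.11 (adjusted p = 0.114) and ACSF3 at 0.097 (adjusted p = 0.49). FABP5, a cytosolic fatty acid carrier, fell from 34.4 ± 1.3 to 16.7 ± 1.6 FPKM with TXX-1-10 (SD, n = 3), a log2 fold change of -1.05 (SE 0.072, adjusted p = 5.43e-08). This was just under the 2-fold threshold with TMM scaling and without TXX-1-10 replicate 2 (-0.99 in both). With a replicate block and gene length correction it was -0.95, the smallest fall among the alternatives. It fell by 0.47 with rimonabant (adjusted p = 0.000534). SLC27A1, a fatty acid transport protein with acyl-CoA synthetase activity, was at 2.09, 2.003 and 1.99 FPKM with vehicle, 1.65 and 1.66 with rimonabant, and 3.69, 3.76 and 3.58 with TXX-1-10. It rose by 0.86 with TXX-1-10 (adjusted p = 2.45e-07), fell by 0.29 with rimonabant (adjusted p = 0.0137), and was called changed between the compounds (1.15, SE 0.081). The rimonabant value did not pass without either rimonabant library (adjusted p = 0.0767 without replicate 2 and 0.0672 without replicate 3). ACOT7, an acyl-CoA thioesterase, fell by 0.64 (adjusted p = 3.49e-06) and by 0.22 (adjusted p = 0.0335). The latter did not pass without any 1 of the 3 vehicle or 2 rimonabant libraries (adjusted p 0.0589 to 0.206), nor with rimonabant replicate 1 included (-0.11, adjusted p = 0.359).

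Of 18 genes of mitochondrial import and oxidation, 11 fell and 5 rose with TXX-1-10, and 8 fell and 3 rose with rimonabant. Of all genes, 40.6% fell and 34.7% rose with TXX-1-10, and 22.8% fell and 23.7% rose with rimonabant. CPT1C, a brain-type relative of CPT1A, fell by 1.30 with TXX-1-10 (SE 0.150, adjusted p = 6.42e-06) at a low level of 2.62 ± 0.52 FPKM in vehicle-treated cells. HADH, which oxidises hydroxyacyl-CoA of short and medium chains, fell from 4.13 ± 0.17 to 1.80 ± 0.11 FPKM (log2 fold change -1.20, SE 0.073, adjusted p = 1.63e-08). With rimonabant these fell by 0.75 (adjusted p = 0.00259) and 0.31 (adjusted p = 0.00584), the latter not past the threshold without rimonabant replicate 2 (-0.23, adjusted p = 0.0911). PPARA, a lipid-sensing nuclear receptor that drives oxidation genes, rose from 1.67 ± 0.072 to 3.63 ± 0.40 FPKM with TXX-1-10 (log2 fold change 1.12, SE 0.084, adjusted p = 1.26e-07). It rose by 0.49 with rimonabant (adjusted p = 0.00151).

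Genes of glycerolipid synthesis and lipid droplets leaned higher with TXX-1-10. Of 16, 8 rose and 2 fell, where 34.7% of all genes rose and 40.6% fell. LPIN1, a phosphatidate phosphatase, was at 4.47, 4.54 and 4.70 FPKM with vehicle, 7.95 and 8.26 with rimonabant, and 9.29, 9.73 and 8.56 with TXX-1-10. It rose by 1.01 on the log2 scale with TXX-1-10 (SE 0.059, adjusted p = 1.23e-08) and by 0.83 with rimonabant (SE 0.065, adjusted p = 2.5e-06). The TXX-1-10 value was under the threshold of 1 without vehicle replicate 1 (0.993) or TXX-1-10 replicate 2 (0.966). LPIN2, of the same family, rose by 0.56 (adjusted p = 7.47e-07) and 0.33 (adjusted p = 0.00061). PNPLA2, the triglyceride lipase of droplets, rose by 0.54 (adjusted p = 2.5e-06) and 0.24 (adjusted p = 0.00781), of which the rimonabant value did not pass without rimonabant replicate 3 (0.20, adjusted p = 0.095). With rimonabant 5 of the 16 rose, 2 fell and 9 did not pass, where 23.7% of all genes rose and 22.8% fell.

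**Figure D4:**
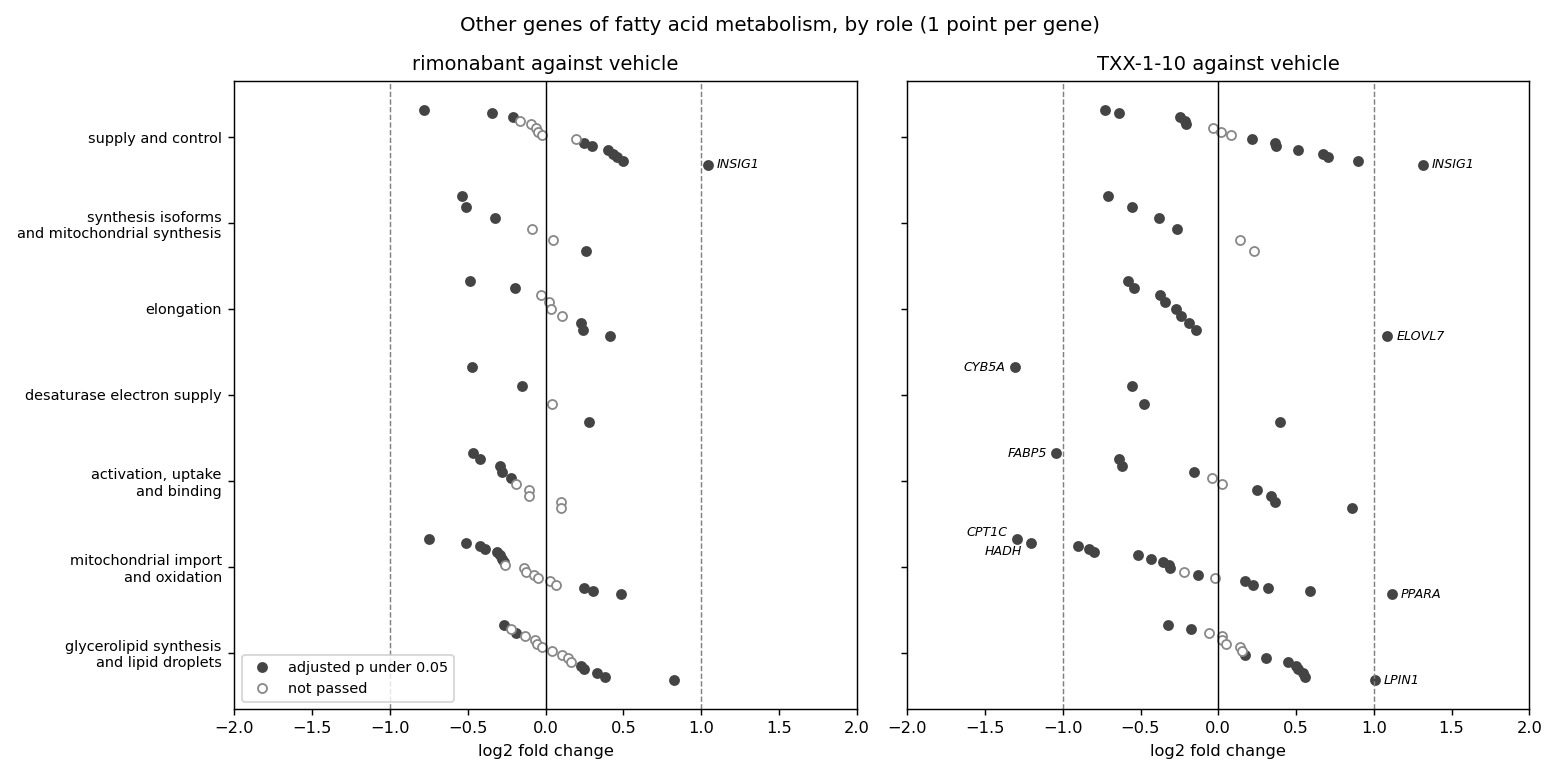
Log2 fold change (x axis) of 79 other genes of fatty acid metabolism in 7 roles, with 1 point per gene, for rimonabant (left) and TXX-1-10 (right) against vehicle in the fit of 8 libraries; filled points have an adjusted p under 0.05, and genes beyond a log2 fold change of 1 (dashed lines) are named. With TXX-1-10, 8 of the 9 elongation genes lie left of 0, and 8 genes lie beyond 1 in either direction, against 1 with rimonabant.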

How the data were processed

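RNA-seq of 9 libraries was used (3 vehicle, 3 rimonabant, 3 TXX-1-10). Polyadenylated RNA was selected with oligo(dT) and read on an Illumina platform. HISAT2 2.0.5 and featureCounts 1.5.0-p3 are named, without roles, in the submitters' processing notes. The authors deposited a raw count for each gene. They also deposited FPKM values, in which the authors scaled the count to exon length and to a total per library, and this total, recovered from both columns, was used as library size. Which reads it holds, and the strand setting of the counting, are not given in the sources used here. Each list is sorted by falling count and stops within a line, which was dropped. Genes with few reads were therefore not used here. Coordinates match GENCODE 29 (GRCh38) for 9396 of 9397 genes.

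Members were tested in a fit of 9 libraries (4236 genes), and pathway genes in a fit of 8 (9369 genes), both with a mean FPKM of at least 1, by edgeR 4.0.16 (R 4.3.3; glmQLFit, glmQLFTest) with Benjamini-Hochberg adjustment over all genes tested. Standard errors were derived from the F statistic and are approximate. On simulated counts of TXX-1-10 against vehicle with 200 genes changed 3-fold, each fit recovered 200 with 0 false calls at the 2-fold threshold. The simulated counts had the same spread for every gene and no trend with gene length. Smaller changes, and passes of the adjusted p at any fold, were not checked this way. Replicates differed by more than sampling noise in every pair (chi-square per degree of freedom of 2.29 to 42.2).

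Members and lists were chosen with earlier results of these data known. Named were all members, pathway genes called in any comparison, the 3 largest changes per role with TXX-1-10 against vehicle, and the 3 patterns nearest to PLIN2. Alternatives were TMM, DESeq2 1.42.0, limma 3.58.1 on log2(FPKM + 1) or log2(FPKM + 0.1), other filters, a replicate block, 2 groups only, each library left out, 2 libraries left out, a gene length correction (lowess span 0.3) and the other gene set. Plots were made with Python 3.11.15 and matplotlib 3.10.9.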

Additional observations from a re-analysis of the deposited data

Results flagged for a closer look

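PLIN2 differed between the compounds in direction. All 3 TXX-1-10 libraries lay above and all 3 rimonabant libraries below the vehicle libraries, and the test of the difference itself, TXX-1-10 against rimonabant, gave a log2 fold change of 1.62 (SE 0.072, adjusted p = 4.28e-08, edgeR). Over 21 alternatives the value ranged from 1.54 to 1.71.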

How the results depend on the processing

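PLIN2 was the single member called with TXX-1-10 in every alternative that kept the 2-fold threshold, and 0 members were called with rimonabant. At any fold, 7 members passed with TXX-1-10, 9 with rimonabant and 8 between the compounds. Over the alternatives these counts were 6 to 8, 7 to 9 and 7 to 8. For pathway genes, calls with TXX-1-10 were 8, but 2 with limma on log2(FPKM + 1), 3 with a mean FPKM of at least 5, 2 among the genes of all 9 lists, 64 at any fold and 6 to 8 with a library left out. With rimonabant 1 was called, but 0 with limma on log2(FPKM + 1), 45 at any fold and 0 to 1 with a library left out. Between the compounds 2 were called, but 1 with limma, 1 with the higher filter, 0 among the genes of all 9 lists, 49 at any fold and 1 to 2 with a library left out. Among the genes of all 9 lists, 35, 23 and 32 pathway genes passed at any fold, because fewer were tested.

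Values that turned sign had not passed and lay near 0, and the cause was not tested. With TXX-1-10 against vehicle, FASN was 0.059 with TMM, 0.061 with DESeq2, 0.034 without rimonabant 1 and TXX-1-10 3, 0.027 with the length correction, 0.028 with block and length correction, and -0.084 to 0.034 with a library left out. FADS1 was -0.018 to 0.052 with a library left out, and passed with the length correction (0.081, adjusted p = 0.0435). CPT1A was 0.083, 0.085, 0.074 and 0.074 with TMM, DESeq2, length correction, and block with length correction. With rimonabant, FADS2 was 0.0016, 0.0026, 0.063 and 0.062 under the same 4, and -0.044 to 0.020 with a library left out. HACD2 was -0.018 with the block, -0.00085 with the length correction, -0.040 with both and -0.0020 in 9 libraries. Between the compounds, ACACA was 0.072 with TMM, 0.074 with DESeq2 and -0.14 to 0.13 with a library left out, and ACSL3 was 0.061, 0.061, 0.037 and 0.037 under the 4 settings above.

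Whether replicate numbers pair the samples was not settled. Correlations of same-numbered deviations ran from -0.787 to 0.826. Of 18 pairs of a library with another group, the library of the same number correlated best in 4. In the treated libraries, levels relative to the other replicates of the group also followed gene length. This check therefore cannot tell whether the numbers pair the samples. With the replicate number as a block, ACSL4 between the compounds no longer passed (-0.15, adjusted p = 0.0721), MID1IP1 and G0S2 with rimonabant passed (-0.20, adjusted p = 0.0462, and -0.23, adjusted p = 0.0442), and the other member calls held. Where a rimonabant library is left out of the 8, the lone one is assumed to vary like the other groups. The total behind the FPKM values was at least 17078370 reads in each library. ACACA rests on the fewest reads among the members, 1586 in rimonabant replicate 1.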

Other observations

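Genes named in these paragraphs were chosen after their values were seen. SREBF1, the gene of the SREBP-1 factor that drives fatty acid synthesis genes, was at 8.33, 9.55 and 9.68 FPKM with vehicle, 5.07 and 5.63 with rimonabant, and 7.76, 7.62 and 7.87 with TXX-1-10, in the fit of 8 libraries. The 3 groups did not overlap. It fell by 0.78 on the log2 scale with rimonabant (SE 0.079, adjusted p = 1.47e-05) and by 0.25 with TXX-1-10 (SE 0.068, adjusted p = 0.00559), and was 0.53 higher with TXX-1-10 than with rimonabant (adjusted p = 9.42e-05).

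Among droplet genes, G0S2, an inhibitor of the lipase PNPLA2, was at 99.9, 99.0 and 97.6 FPKM with vehicle, 81.5 and 88.1 with rimonabant, and 134.5, 126.0 and 158.4 with TXX-1-10. It rose by 0.50 with TXX-1-10 (SE 0.076, adjusted p = 7.33e-05), and its rimonabant value was -0.22 (adjusted p = 0.0557), which passed without TXX-1-10 replicate 2 (adjusted p = 0.0275) or 3 (0.000536) but not without rimonabant replicate 2 (0.3) or 3 (0.0921). With rimonabant replicate 1 included it was -0.13 (adjusted p = 0.304). MGLL, the monoglyceride lipase, rose by 0.51 with TXX-1-10 (SE 0.050, adjusted p = 1.21e-06) and was at -0.13 with rimonabant (adjusted p = 0.0677, 0.00644 without TXX-1-10 replicate 3 and 0.0211 with rimonabant replicate 1 included). CYB5R1 was the desaturase electron supply gene that rose with TXX-1-10, by 0.40 (SE 0.060, adjusted p = 5.95e-05), and it rose by 0.28 with rimonabant (adjusted p = 0.00471, and 0.0519 without rimonabant replicate 2).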
